A study of Rattus norvegicus with 6 samples.

Results

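The antioxidant target genes of NRF2 were followed in dermal fibroblasts of the rat in culture, cells that build the collagen matrix of the skin. Out of 15168 genes named on the array the set held 10, Hmox1, Nqo1, Cat, Gclc, Gclm, Gsr, Txnrd1, Srxn1, Prdx1 and Nfe2l2, taken as every gene probe whose RefSeq accession named 1 of these symbols. They were read by 11 probes of the 30367 gene probes on the array, 2 for Txnrd1 and 1 for each other gene. All 11 probes were well above background on all 6 arrays, so none entered the comparison through 1 group alone.

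The control group (n = 3) carried a control lentivirus and the knockdown group (n = 3) a lentivirus whose short hairpin RNA (shRNA) targets lnc-URIDS, a long non-coding RNA. Both groups received virus at a multiplicity of infection of 10 with puromycin, which kills cells lacking the viral cassette, at 2 µg/mL for 48 h, and both grew in DMEM with 1000 mg/L glucose and 10% FBS, so that no group was free of virus or puromycin. One-colour Agilent arrays, 1 per sample, gave the signals. Strain, age and sex are not in the labels, nor is it said whether the 3 samples of a group were separate cultures; the spread that p-values measure here may therefore be technical. None of the probes named here carried the name lnc-URIDS, so the knockdown itself was not checked.

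Arrays had 68.8% to 74.1% of probes well above background, their 75th percentiles of signal lay between 1493 and 1609 units, and 0 gene spots were saturated. Precision is limited by the number of arrays. Of 10 fibroblast markers, 8 were well above background on all 6 arrays (summed signal 461 to 510 times the 75th percentile in controls and 483 to 492 in knockdown), and Dcn and Lum, which encode decorin and lumican, were so on none. That sum is mostly collagen and fibronectin, and 3 of the 8 markers had lower knockdown groups without overlap and an unadjusted limma p under 0.05. Of all tested probes, 12.4% did not overlap in that direction and 8.7% had a lower mean at that p. The 3 markers, named after their values were seen, were Prrx1, Pdgfra and Vim, which encode a mesenchymal transcription factor, a growth factor receptor and vimentin. Prrx1 had a log2 fold change of -0.70 ± 0.22 (SE, limma adjusted p = 0.262), and -0.71 on its second probe. Pdgfra had -0.51 ± 0.13 (adjusted p = 0.207) and Vim -0.11 ± 0.04 (adjusted p = 0.328). Of the 8 markers tested, 5 had lower and 3 higher means in knockdown. The higher ones were Col1a2 (0.06), Col3a1 (0.04) and Fn1 (0.01, with -0.13 on its second probe). Col1a1 had -0.02 (-0.09 on its second probe) and Thy1 -0.31, and the groups overlapped for both. The part of these markers in the differences of the NRF2 targets was not tested. Summed markers of other cells overlapped between the groups. The summed signal of 8 macrophage and blood cell markers, relative to the array's 75th percentile, was 0.911 to 1.096 in controls and 0.911 to 0.958 in knockdown. Of these 8, 5 were well above background on all 6 arrays, and Ptprc and Itgam on none. For 5 keratinocyte, 5 endothelial and 5 mural markers the control ranges were 2.41 to 2.66, 0.179 to 0.225 and 16.3 to 18.7. The knockdown ranges were 2.62 to 2.67, 0.192 to 0.222 and 16.8 to 18.1. Well above background on all 6 arrays were 3 keratinocyte, 2 endothelial and 4 mural markers, whereas Krt1, Cdh1, Pecam1 and Rgs5 were so on none. The keratinocyte sum came mostly from Tp63, whose log2 fold change (knockdown minus control) was 0.05, against -0.57 on its second probe. The mural sum came mostly from Pdgfrb (-0.08) and Cspg4 (0.15). Of the tested markers of these other cells, Cd14 (-0.18, limma adjusted p = 0.394) and Des (-0.20, adjusted p = 0.332) had lower knockdown groups without overlap. The others overlapped on the probes used in the sums. By the scan identifiers in the file headers, slide 2 held control 3 with knockdown 1, and slide 1 held the other 4 arrays.

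NRF2, the transcription factor encoded by Nfe2l2, is held in the cytoplasm by KEAP1, which marks it for degradation. Oxidants and electrophiles modify KEAP1, NRF2 then accumulates, pairs with a small MAF protein and binds antioxidant response elements in its target genes. The targets make glutathione, recycle thioredoxin and peroxiredoxin, detoxify quinones and break down heme, and in skin cells they protect against peroxides and quinones.

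The core of the antioxidant response element, TGACNNNGC, was searched on both strands of RefSeq promoter windows (GRCr8 assembly), which run from 250 bases before to 50 bases after a gene's start. Windows were found for 8 of the 10 genes, 9 windows in all with 2 for Txnrd1; Hmox1 and Gsr were not matched. The core occurred in the windows of Gclm, Txnrd1 (1 of 2), Prdx1 and Nfe2l2, that is in 4 of 9 windows, against 12.1% of all 33469 windows. The consensus also allows G in place of the first C, and this form, TGAGNNNGC, added after the windows were seen, occurred in Srxn1 alone of these genes and in 17.2% of all windows. The AP-1 motif TGACTCA, which lies within the core form TGACTCAGC, occurred in Srxn1 and Prdx1 and in 4.63% of all windows. A match of letters is a description and no measured binding site.

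Of the 5 windows that hold either form of the core, the 4 with a match before the start are shown 5′ to 3′ on the gene's strand, because this element is the one that NRF2 binds; capitals mark the matches to the core forms and to the AP-1 motif. Gclm lies at chr2:213031885-213032184 (plus strand), the Txnrd1 window at chr7:22755855-22756154 (minus strand), Prdx1 at chr5:135383656-135383955 (plus strand) and Srxn1 at chr3:161064562-161064861 (plus strand).
Gclm: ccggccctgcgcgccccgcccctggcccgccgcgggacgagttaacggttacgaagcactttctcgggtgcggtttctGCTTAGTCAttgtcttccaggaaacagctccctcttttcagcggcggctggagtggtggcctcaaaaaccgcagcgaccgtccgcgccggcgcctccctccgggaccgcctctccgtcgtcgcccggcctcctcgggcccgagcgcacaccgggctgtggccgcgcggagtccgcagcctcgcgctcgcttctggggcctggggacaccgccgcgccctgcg
Txnrd1: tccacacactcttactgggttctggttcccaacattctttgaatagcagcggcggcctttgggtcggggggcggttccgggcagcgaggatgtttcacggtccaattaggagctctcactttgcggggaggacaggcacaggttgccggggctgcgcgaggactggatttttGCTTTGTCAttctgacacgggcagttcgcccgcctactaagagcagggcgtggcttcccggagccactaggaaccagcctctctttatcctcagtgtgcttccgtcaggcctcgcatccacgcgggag
Prdx1: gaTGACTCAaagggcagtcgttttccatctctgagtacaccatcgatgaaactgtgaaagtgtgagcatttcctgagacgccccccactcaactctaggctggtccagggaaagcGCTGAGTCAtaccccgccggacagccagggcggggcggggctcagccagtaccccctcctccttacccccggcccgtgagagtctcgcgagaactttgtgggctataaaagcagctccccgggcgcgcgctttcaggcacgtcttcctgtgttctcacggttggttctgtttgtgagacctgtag
Srxn1: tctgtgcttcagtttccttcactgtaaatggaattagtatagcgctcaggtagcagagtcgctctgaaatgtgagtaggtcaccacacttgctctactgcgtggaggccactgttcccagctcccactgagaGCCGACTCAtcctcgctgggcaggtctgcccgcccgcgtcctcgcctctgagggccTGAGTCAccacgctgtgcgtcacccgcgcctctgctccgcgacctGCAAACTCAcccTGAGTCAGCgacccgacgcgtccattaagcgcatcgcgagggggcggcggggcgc

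Read on the strand opposite to the printed one, the Gclm match was TGACTAAGC at bases -172 to -164 from the start. Read likewise, the Txnrd1 match was TGACAAAGC at -78 to -70 and the Prdx1 match TGACTCAGC at -135 to -127. In Srxn1 the matches were TGAGTCGGC at -118 to -110 and TGAGTTTGC at -17 to -9, both on the strand opposite to the printed one. A further match, TGAGTCAGC, lay across the start itself, from -5 to 4, on the printed strand. The Nfe2l2 window held TGACGCCGC at bases 39 to 47, after the start. Neither form of the core was in the windows of Nqo1, Cat or Gclc.

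The first comparison asked whether these genes differed between knockdown and control fibroblasts. Of the 10 genes, 9 had a lower mean signal in knockdown, and the lower means were clearest for the heme-degrading enzyme gene Hmox1 and the catalase gene Cat. With limma, 0 of the 11 probes had an adjusted p under 0.05, and so did 0 of all 20773 tested probes (0%), of which 3006 had an unadjusted p under 0.05. Without adjustment, 3 of the 10 genes (Hmox1, Cat and Nqo1) had lower means with p under 0.05, against 8.7% of all tested probes, and 0 had higher means, against 5.77%. The groups did not overlap in 2 genes, Hmox1 and Cat, both lower in knockdown, where 12.4% of all tested probes did not overlap in that direction and 9.66% in the other. The median log2 fold change (knockdown minus control) of the 10 genes, with the brighter Txnrd1 probe, was -0.14, a fold of 0.909, against -0.01 for all tested probes. Of all tested probes 53.8% had a lower mean in knockdown. The genes were chosen with earlier results of these data known, so their count and median are a description. With array quality weights, which gave control 3 and knockdown 3 most of the weight, 6 of the 11 probes passed, where 44.5% of all tested probes did.

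**Figure D1:**
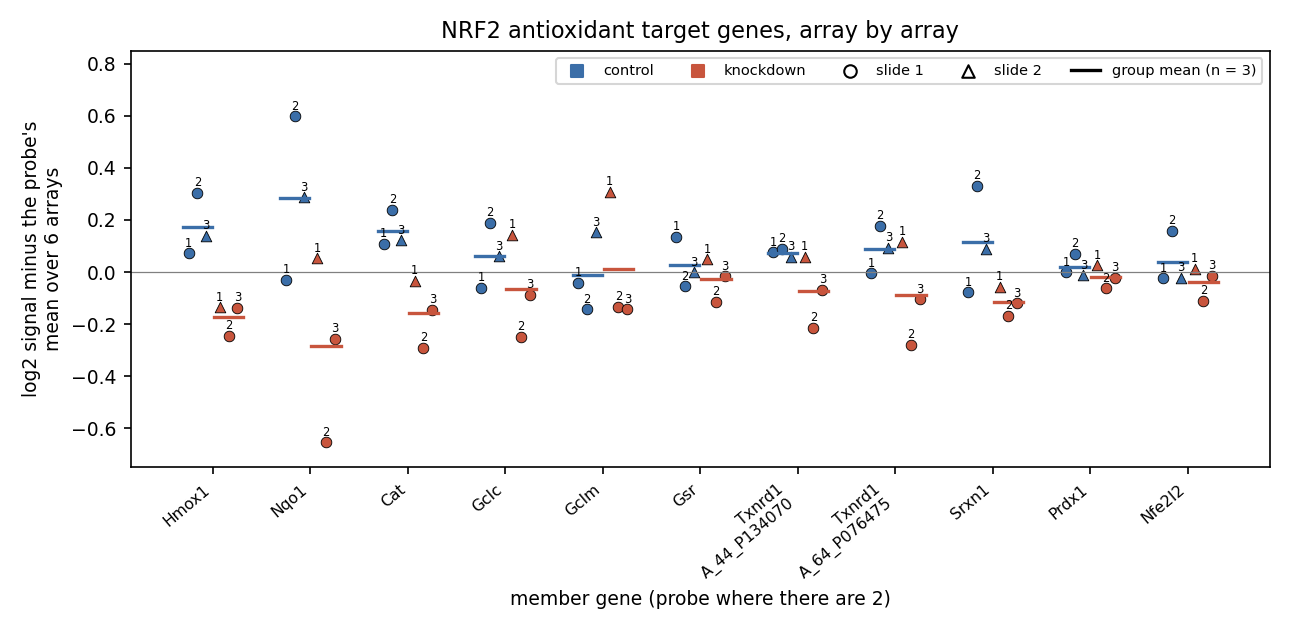
Log2 signal of each of the 11 probes on the 6 arrays, minus the probe's own mean over the arrays (vertical axis), for controls (blue) and knockdown (red), with circles for slide 1, triangles for slide 2, replicate numbers above the points and lines for group means (n = 3). Control 2 lies highest for 8 of the 10 genes and knockdown 2 lowest for 9, and the groups separate for Hmox1 and Cat only.

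Nfe2l2, the gene of the regulator itself, gave nearly equal signals in the groups. Its signals, given as log2 differences from the 75th percentile of the array as are all levels that follow, were 2.38, 2.56 and 2.38 in controls 1, 2 and 3, against 2.41, 2.29 and 2.39 in knockdown 1, 2 and 3. The groups overlapped, with control 2 above and knockdown 2 below the other 4 arrays. The log2 fold change was -0.08 ± 0.07 (SE, n = 3 per group; limma adjusted p = 0.701), and the 95% confidence interval of the fold ran from 0.842 to 1.07. It was -0.015 without control 2 and -0.039 without knockdown 2. The array reads the transcript, whereas NRF2 is controlled mainly through the stability of its protein, which was not measured.

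Hmox1 encodes heme oxygenase 1, which opens the heme ring to biliverdin, iron and carbon monoxide. Its log2 signals were 0.17, 0.41 and 0.24 in controls 1, 2 and 3, against -0.04, -0.14 and -0.04 in knockdown 1, 2 and 3. Every knockdown array lay below every control array, on slide 2 as on slide 1. The fitted log2 fold change was -0.35 ± 0.07 (SE, n = 3 per group; limma adjusted p = 0.191), a fold of 0.787 with a 95% confidence interval from 0.693 to 0.894. The difference was -0.38 within slide 1 and -0.27 within slide 2, and with slide as a block the limma adjusted p was 0.221. By its p-value the probe ranked 413 of the 20773 tested. These are bulk RNA samples, in which fewer cells making a transcript and less of it per cell cannot be told apart.

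The Hmox1 probe was printed 10 times on each array, as was the probe of Gsr, which allowed the spread of spots within an array to be set beside the spread of arrays. With 8 to 10 spots of Hmox1 left per array after outlier spots were removed, the spot SD was 0.03 to 0.10 on the log2 scale. The SD between arrays was 0.12 in controls and 0.06 in knockdown. On knockdown 1 and knockdown 2 the highest Hmox1 spots, at 0.01 and -0.07, lay below the lowest spot of any control array, at 0.04. On knockdown 3 the highest spot reached 0.19 and overlapped the control spots. Spots of 1 array share their RNA and were averaged before the test.

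**Figure D2:**
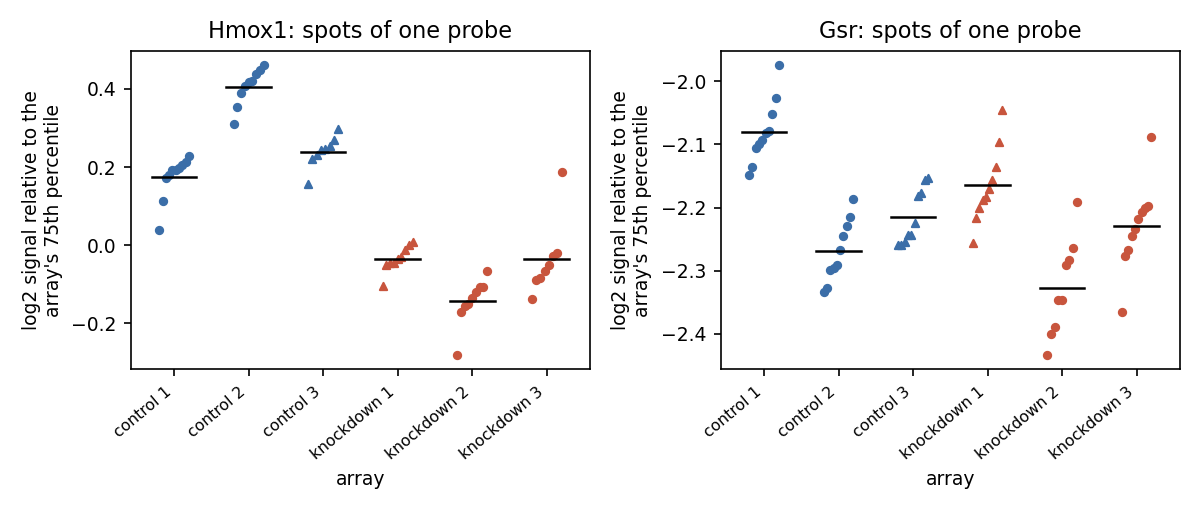
Log2 signal of single spots relative to the array's 75th percentile (vertical axis) for the probes of Hmox1 (left) and Gsr (right) on each array, with controls in blue, knockdown in red, triangles for slide 2 and black lines for the array mean. Array means of Hmox1 run from 0.17 to 0.41 in controls and from -0.14 to -0.04 in knockdown, whereas those of Gsr overlap.

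Nqo1 encodes NAD(P)H quinone dehydrogenase 1, which reduces quinones in a single step that spares the cell reactive semiquinones, and is a standard reporter of NRF2 activity. Of the 10 genes it had the lowest fold and the widest spread. Its log2 signals were 0.19, 0.82 and 0.51 in controls 1, 2 and 3, against 0.27, -0.43 and -0.04 in knockdown 1, 2 and 3. Knockdown 1 lay above control 1, so the groups overlapped, and the arrays of each group spanned more than the difference between the group means. The log2 fold change was -0.57 ± 0.23 (SE, n = 3 per group; limma adjusted p = 0.342), a fold of 0.673 with a 95% confidence interval from 0.454 to 0.998. It was -0.74 within slide 1 and -0.24 within slide 2, and -0.39 without knockdown 2.

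Cat encodes catalase, the peroxisomal enzyme that splits hydrogen peroxide into water and oxygen. Its log2 signals were -2.25, -2.12 and -2.24 in controls 1, 2 and 3, against -2.39, -2.65 and -2.51 in knockdown 1, 2 and 3. All knockdown arrays lay below all control arrays, with the smallest gap, between control 1 and knockdown 1, about as large as the SD of the knockdown arrays (0.13). Between the group means the log2 fold change was -0.31 ± 0.08 (SE, n = 3 per group; limma adjusted p = 0.209), a fold of 0.805 with a 95% confidence interval from 0.702 to 0.923. It was -0.39 within slide 1 and -0.16 within slide 2.

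The glutathione genes of the set showed smaller differences. Gclc and Gclm encode the catalytic and modifier subunits of glutamate-cysteine ligase, which makes the first and rate-limiting bond of glutathione, and Gsr encodes the reductase that returns oxidised glutathione to its reduced form. Gclc had log2 signals of 0.22, 0.47 and 0.34 in controls 1, 2 and 3, against 0.42, 0.03 and 0.19 in knockdown 1, 2 and 3. Knockdown 1 was the second highest of the 6 arrays, and the log2 fold change was -0.13 ± 0.12 (SE, n = 3 per group; limma adjusted p = 0.703; 95% confidence interval of the fold 0.749 to 1.12). It was -0.03 without knockdown 2, -0.06 without control 2 and -0.23 without knockdown 1.

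Gclm was the gene with a higher mean in knockdown. Its log2 signals were -3.22, -3.32 and -3.02 in controls 1, 2 and 3, against -2.87, -3.31 and -3.32 in knockdown 1, 2 and 3. The higher values were those of control 3 and knockdown 1, the arrays of slide 2, and without knockdown 1 the log2 fold change turned from 0.02 to -0.13, and without control 2 to -0.045. With all arrays its error was 0.15 (SE, n = 3 per group; limma adjusted p = 0.975; 95% confidence interval of the fold 0.788 to 1.31). Its log2 fold change ran from -0.13 to 0.10 over the fits that left out 1 array.

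Gsr had log2 signals of -2.08, -2.27 and -2.22 in controls 1, 2 and 3, against -2.16, -2.33 and -2.23 in knockdown 1, 2 and 3. The groups overlapped, and its spots had SDs of 0.04 to 0.08 within an array against 0.10 and 0.08 between the arrays of the control and knockdown groups. The log2 fold change was -0.05 ± 0.07 (SE, n = 3 per group; limma adjusted p = 0.816), and its sign turned within slide 2 (0.05), without control 1 (0.0012) and with a normexp background (0.02). It was -0.0096 without knockdown 2, -0.094 without control 2 and -0.091 without knockdown 1.

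The thioredoxin genes of the set have linked roles in the reduction of peroxides. PRDX1 is a peroxiredoxin that reduces peroxide with a cysteine thiol, SRXN1 (sulfiredoxin) rescues peroxiredoxins whose cysteine has been overoxidised, and TXNRD1 is the selenoprotein that recharges thioredoxin from NADPH. The brighter Txnrd1 probe, A_44_P134070, had log2 signals of 0.89, 0.90 and 0.87 in controls 1, 2 and 3, against 0.87, 0.60 and 0.74 in knockdown 1, 2 and 3. The control arrays lay within a narrow band, knockdown 1 lay at its lower edge, and knockdown 2 and 3 lay below it.

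The log2 fold change of that probe was -0.15 ± 0.08 (SE, n = 3 per group; limma adjusted p = 0.433; 95% confidence interval of the fold 0.792 to 1.03). The second Txnrd1 probe, A_64_P076475, ran from -1.20 to -1.02 in controls and was -1.08, -1.48 and -1.30 in knockdown 1, 2 and 3. It had a log2 fold change of -0.18 ± 0.11 (SE; limma adjusted p = 0.529), so both probes had the same sign and similar sizes. Without knockdown 2 the probes had -0.079 and -0.083, and without knockdown 1 -0.22 and -0.28. Both had values near 0 within slide 2, at 0.00015 and 0.02, against -0.22 and -0.28 within slide 1.

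Srxn1 had log2 signals of -0.19, 0.22 and -0.03 in controls 1, 2 and 3, against -0.17, -0.28 and -0.24 in knockdown 1, 2 and 3. Control 1 and knockdown 1 were nearly level, control 2 stood highest, and the knockdown arrays were closer together (SD 0.06) than the control arrays (SD 0.21). Its log2 fold change was -0.23 ± 0.11 (SE, n = 3 per group; limma adjusted p = 0.411; 95% confidence interval of the fold 0.708 to 1.03), and it was -0.12 without control 2.

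Prdx1 was the steadiest of the 10 genes, with a pooled SD between arrays of a group of 0.04. Its log2 signals were 2.32, 2.40 and 2.31 in controls 1, 2 and 3, against 2.35, 2.26 and 2.30 in knockdown 1, 2 and 3. The groups overlapped and the log2 fold change was -0.04 ± 0.05 (SE, n = 3 per group; limma adjusted p = 0.800), with a 95% confidence interval of the fold from 0.898 to 1.06, the narrowest of the set. Leaving out control 2, knockdown 2 or knockdown 1 gave -0.013, -0.016 and -0.061. With limma, 7 of the 10 genes had a confidence interval that included no difference.

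**Figure D3:**
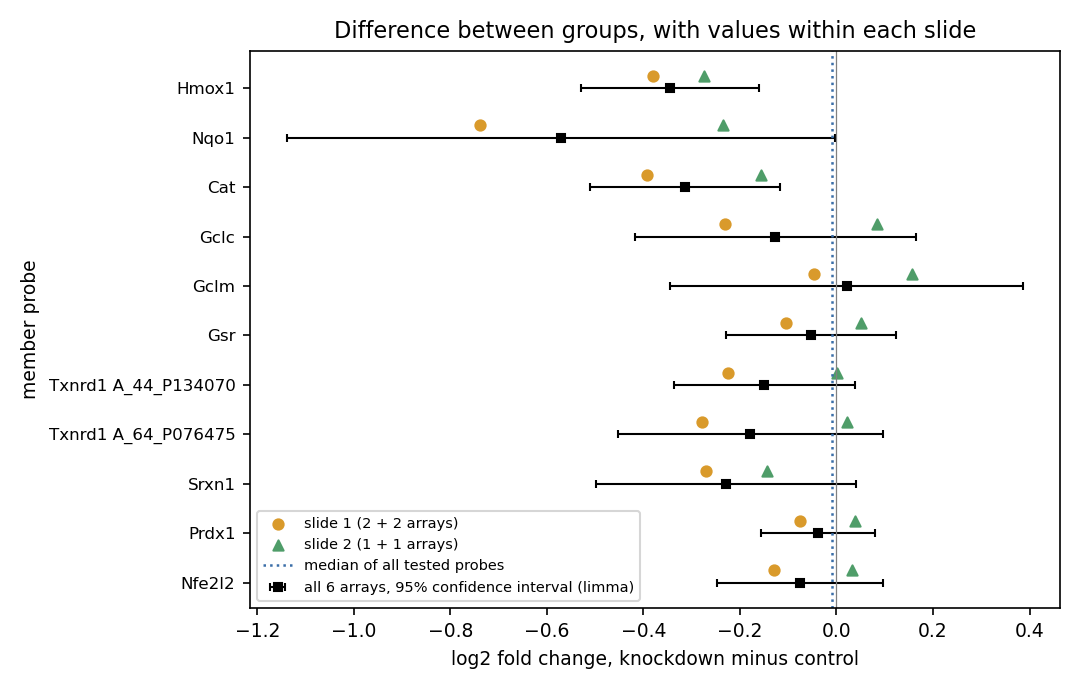
Log2 fold change (knockdown minus control, horizontal axis) of the 11 probes over all 6 arrays with the 95% confidence interval of the limma fit (black squares and bars), within slide 1 (circles) and within slide 2 (triangles); the dotted line marks the median of all tested probes. Hmox1, Nqo1, Cat and Srxn1 lie below 0 on both slides, and the values within slide 2 lie to the right of those within slide 1 for all 11 probes.

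Most of the 10 genes shared a pattern from array to array, also within a group. Control 2 was the highest of the 6 arrays for 8 of the 10 genes, against 20% of all tested probes, and knockdown 2 was the lowest for 9 of the 10, against 23.5%. Gclm and Gsr went the other way on control 2, with deviations from their own means of -0.14 and -0.05. The median of the genes' deviations from their own means was -0.01, 0.17 and 0.07 in controls 1, 2 and 3, against 0.04, -0.19 and -0.10 in knockdown 1, 2 and 3. Over all tested probes this median stayed between -0.03 and 0.02 on every array. The 6 pathway lists described below had smaller medians of the same signs, positive on control 2 and negative on knockdown 2. The heme and iron list had 0.13 and -0.09, the glutathione list 0.11 and -0.05, and the fibroblast markers 0.05 and -0.06. The macrophage, keratinocyte and endothelial markers had negative medians on control 2. Knockdown 2 and knockdown 3 lay below the mean for all 10 genes, whereas knockdown 1 lay above it for 7, as did control 3, its partner on slide 2.

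Within slide 1 all 10 genes were lower in knockdown (median log2 fold change -0.23), against 55.8% of all tested probes. Within slide 2, with 1 array per group and hence no test, 4 of the 10 were lower and the median was 0.02, against 47.7%. Whether the difference varies between the slides was not tested. The median over all arrays was -0.06 without knockdown 2 and -0.22 without knockdown 1.

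Genes that belong to the same pathways were read from lists that do not hold the 10 genes. Of 65 such genes tested, 43 were lower in knockdown by their means and 22 higher (median log2 fold change -0.03), and 0 passed limma's test at an adjusted p under 0.05 (smallest adjusted p 0.191). At an unadjusted p under 0.05, 12 of the 65 had lower and 3 had higher means, beside 8.7% and 5.77% of all tested probes. Without overlap between groups, 19 of the 65 were lower and 3 higher in knockdown, beside 12.4% and 9.66% of all tested probes. The lists, like the members, were chosen with earlier results of these data known, so their counts and medians are a description. All genes named from these lists were well above background on all 6 arrays.

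Among the regulators of NRF2, 7 of 11 genes had lower and 4 higher means, with a median log2 fold change of -0.03. The smallest p belonged to Btrc, which encodes a ubiquitin ligase subunit that can mark NRF2 for degradation independently of KEAP1, with -0.27 ± 0.06 (SE, n = 3 per group; limma adjusted p = 0.191). Nfe2l1, the gene of the related factor NRF1, had -0.40 ± 0.09 (adjusted p = 0.2001). Its log2 signals were -1.14, -0.79 and -0.97 in controls 1, 2 and 3, against -1.32, -1.39 and -1.38 in knockdown 1, 2 and 3, so that the groups did not overlap. Keap1, named after its values were seen because it is the main repressor, had log2 signals of -0.54, -0.60 and -0.63 in controls 1, 2 and 3, against -0.78, -0.75 and -0.71 in knockdown 1, 2 and 3. Here too the groups did not overlap, and the log2 fold change was -0.16 ± 0.05 (limma adjusted p = 0.237), and -0.16 and -0.15 within slides 1 and 2.

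In the glutathione list 10 of 14 tested genes had lower and 4 higher means (median log2 fold change -0.09), and 5 of the 14 had an unadjusted p under 0.05, all lower, where 8.7% of all tested probes were lower at that p. The glutathione transferase gene Gsta4, whose product conjugates lipid aldehydes, had -0.30 ± 0.07 (SE, n = 3 per group; limma adjusted p = 0.2003), and the glutaredoxin gene Glrx had -0.37 ± 0.09 (adjusted p = 0.202). Both were nearly equal on the slides, at -0.31 and -0.29 for Gsta4 and -0.37 and -0.36 for Glrx. The other glutathione transferase genes of low p, Gstm1 and Gstp1, were also named after their values were seen. Gstm1 had -0.31 ± 0.10 (limma adjusted p = 0.274) and Gstp1 -0.30 ± 0.10 (adjusted p = 0.272), and the groups did not overlap for either. Whether any of these probes also read related genes was not tested. Slc7a11, the cystine importer and a known NRF2 target, named after its values were seen, had the opposite sign (0.18 ± 0.08, adjusted p = 0.369; 0.17 on its second probe).

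The list with the lowest median was that of heme and iron, at -0.16, with 8 of 10 genes lower and 2 higher. Slc40a1, the iron exporter ferroportin, had log2 signals of -3.45, -2.98 and -3.21 in controls 1, 2 and 3, against -3.67, -3.75 and -3.91 in knockdown 1, 2 and 3. All knockdown arrays lay below all control arrays, the log2 fold change was -0.56 ± 0.13 (SE, n = 3 per group; limma adjusted p = 0.197), and the second probe had -0.52. Blvra, whose product reduces the biliverdin that heme oxygenase makes, had -0.36 ± 0.11 (adjusted p = 0.238), and its groups did not overlap either. Hmox2, the constitutive heme oxygenase, named after its values were seen, had -0.04 ± 0.05.

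The remaining lists lay closer to 0. In the thioredoxin, peroxiredoxin and dismutase list 6 of 13 genes had lower and 7 higher means (median log2 fold change 0.02). The mitochondrial reductase gene Txnrd2 had the smallest p there with 0.15 ± 0.05 (SE, n = 3 per group; limma adjusted p = 0.289), opposite in sign to Txnrd1, and thioredoxin itself, Txn1, had -0.09 ± 0.04 (adjusted p = 0.413). In the list of NADPH supply 4 of 7 genes were lower (median -0.0048). The malic enzyme gene Me1 had 0.15 ± 0.05 (adjusted p = 0.257), with 0.17 on its second probe, and Idh1 had -0.07 ± 0.04 (adjusted p = 0.532). In the detoxification and export list 8 of 10 genes were lower (median -0.03). The epoxide hydrolase gene Ephx1 had -0.42 ± 0.11 (adjusted p = 0.212) and the aldose reductase gene Akr1b1 -0.12 ± 0.06 (adjusted p = 0.472).

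**Figure D4:**
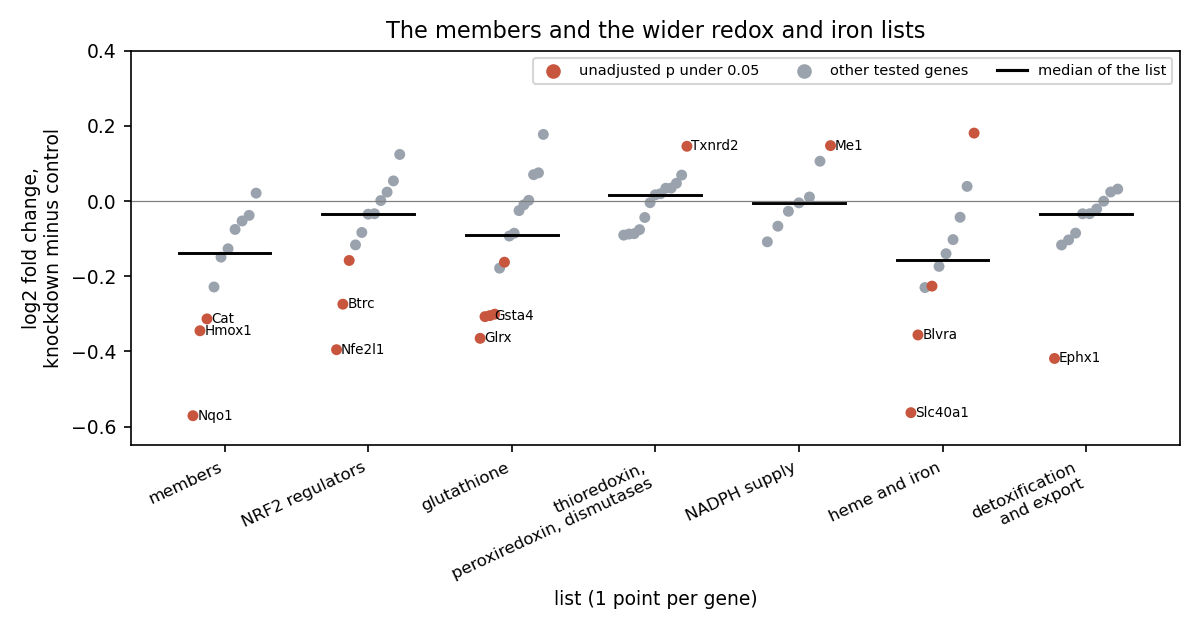
Log2 fold change (knockdown minus control, vertical axis) of each tested gene in the set of 10 members and in 6 wider lists, 1 point per gene with its brightest probe, red where the unadjusted limma p was under 0.05; black lines are list medians. The medians run from -0.16 for heme and iron to 0.02 for thioredoxin, peroxiredoxin and dismutases, with -0.14 for the members.

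The genes whose pattern over the 6 arrays was closest to that of Hmox1 and Nqo1 were found by the root mean square distance between centred log2 signals, among 12383 named probes well above background on all arrays. For Hmox1 they were Ripor2 (distance 0.015), Sdc4 (0.028) and Tpcn1 (0.032), where Hmox1 itself varied by 0.19 about its own mean. Sdc4, which encodes the heparan sulfate proteoglycan syndecan 4, had log2 signals of 1.06, 1.32 and 1.17 in controls 1, 2 and 3, against 0.88, 0.82 and 0.85 in knockdown 1, 2 and 3. For Nqo1, which varied by 0.39, they were Calml4 (0.059), Zfp503 (0.069) and Adm (0.07), the last encoding the vasoactive peptide adrenomedullin. Adm had log2 signals of -2.27, -1.71 and -1.999 in controls 1, 2 and 3, against -2.40, -2.95 and -2.64 in knockdown 1, 2 and 3, with control 2 highest and knockdown 2 lowest, as for Nqo1. With so many probes and 6 arrays, close patterns are a description.

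Set beside the promoter windows shown above, the genes whose windows held the core TGACNNNGC had log2 fold changes of 0.02 (Gclm), -0.15 (Txnrd1), -0.04 (Prdx1) and -0.08 (Nfe2l2), and Srxn1, with the other form, had -0.23. The genes whose windows held neither form had -0.57 (Nqo1), -0.31 (Cat) and -0.13 (Gclc). Elements outside the windows were not searched, so a gene without a match may hold one elsewhere. With 8 genes and windows of 300 bases, these values are given side by side without a test.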

How the data were processed

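Total RNA of 6 samples was labelled with Cy3 and hybridised to 1 Agilent rat array each, per the labels' protocols. The authors deposited scanner output, in which spot intensity is linear and had been background-subtracted and detrended by Agilent Feature Extraction (the file headers name version 11.0.1.1, whereas the submitters' processing notes give 11.0.0.1), without scaling between arrays. Groups and replicate numbers came from titles.

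Outlier spots (386 to 513 per array) and control spots were left out, spots of a probe were averaged, and the array's 75th percentile of log2 intensity over gene spots was subtracted. Probes well above background on all 3 arrays of a group were tested (20773, of which 7 lacked a value on some array). Names came from RefSeq accessions (18005 probes, 15168 symbols; GRCr8, names only, since the array was designed on another assembly). limma 3.58.1 in R 4.3.3 (lmFit, eBayes) gave log2 fold changes, with Benjamini-Hochberg adjustment over all tested probes. The fit was tested on simulated data with independent noise and changes larger than that of any member. That run therefore does not cover differences of the sizes seen here.

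The members and lists were chosen with earlier results of these data known. Named were all members, in each pathway list the 2 genes of smallest p and any that passed, and the 3 nearest profiles to Hmox1 and to Nqo1. Single cell type markers were named after their values were seen, and other names are marked as chosen in that way. Alternatives are listed in the closing section. No 2 arrays were identical.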

Additional observations from a re-analysis of the deposited data

How the results depend on the processing

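The alternatives were quantile, median and probe-based percentile scaling (the last added after the data were seen), normexp backgrounds with an offset of 50, other filters, the brightest or mean probe of a gene, an intensity trend, array quality weights, slide and replicate blocks, single slides and leaving out each array. Hmox1, Nqo1, Cat and Srxn1 kept a lower mean in knockdown under every one of these 21 settings, and Hmox1 ranged from -0.39 to -0.27 on the log2 scale. The filters, the brightest or mean probe, the intensity trend and the blocks left the folds of these genes unchanged by construction, so their signs could not turn there. When arrays were weighted by quality (4.62 for control 3, 7.18 for knockdown 3, under 1 for the others), 6 of the 11 member probes passed (Hmox1, Nqo1, Cat, Srxn1 and both of Txnrd1), as did 9248 of all tested probes (44.5%), and Gclm had -0.24. Centring on the median called 1 probe among all tested. Within slide 2 the median of the members turned to 0.017 and 4 of 10 were lower; signs turned there for Gclc (0.083), Gsr (0.0501), Txnrd1 (0.00015 and 0.022 on its probes), Prdx1 (0.038) and Nfe2l2 (0.033), and within slide 1 for Gclm (-0.046). With normexp and the 75th percentile Gsr turned to 0.022. Leaving out 1 array gave -0.13 to 0.10 for Gclm, -0.094 to 0.0012 for Gsr, and -0.22 to -0.059 for the median of the members, with 0 probes called each time. The causes of these turns were not tested. The replicate block left the folds as they were, with 0 probes called and an adjusted p of 0.356 for Hmox1; same-numbered arrays had correlations of their deviations of 0.10, 0.25 and -0.27, so the numbers were not taken to pair the samples.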
